A study of Danio rerio with 12 samples.

Results

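Cholesterol supply was followed through 10 genes: hmgcs1, hmgcra, idi1, fdft1, sqlea, lss, cyp51 and dhcr7, which encode enzymes of cholesterol synthesis, insig1, which encodes a sterol-sensing regulator, and ldlra, which encodes a receptor for low-density lipoprotein (LDL). They were chosen by name, with earlier results of these data known. The rows of the count table whose gene symbol was one of these names were taken, and all 10 were found among 32520 genes. Of these, 9 could be tested, and insig1 had too few counts. RNA was measured by sequencing of poly(A) RNA in 12 libraries from whole zebrafish embryos, wild type and of the AB strain, at 3 days of age. Exposure started between 2 and 4 hours after fertilisation and lasted until collection. The 4 groups were given testosterone at 30 µM together with EGCG at 100 µM, testosterone at 30 µM together with calindol at 5 µM, testosterone alone at 30 µM, or the vehicle, 0.1% DMSO. The DMSO content of the 3 groups with testosterone is not given in the sources used here. EGCG is epigallocatechin gallate, the main catechin of green tea, and calindol is a synthetic ligand of the calcium-sensing receptor. Each group held 3 libraries, from clutches 1, 2 and 4. The study asked which genes testosterone acts on through the membrane receptor GPRC6A, and its design names EGCG as a strong and calindol as a weak antagonist of that receptor. Since both antagonists were given only together with testosterone, what they do by themselves cannot be told apart from what they do to the testosterone response. The number of embryos pooled per library is not given in the sources used here.

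Cells obtain cholesterol by making it from acetyl-CoA through mevalonate and squalene, or by taking up LDL through the LDL receptor. In mammals both routes are controlled by SREBP transcription factors, which are held in the endoplasmic reticulum by SCAP and INSIG proteins while sterols are plentiful and are released when membrane sterols run low. The genes for the synthesis enzymes, the LDL receptor and INSIG1 are known SREBP targets there. In a zebrafish embryo at this age much of the lipid comes from the yolk through the yolk syncytial layer, and the liver and the intestine are still maturing.

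Library totals lay between 8181295 counts, with testosterone and EGCG in clutch 1, and 22510680 counts. Counts are given as CPM (counts per 1000000, scaled between libraries by the trimmed mean of M values). A gene passed the test at an adjusted p under 0.05 (edgeR's quasi-likelihood test, two-sided, Benjamini-Hochberg adjustment over the 20237 genes tested). CPM are not corrected for transcript length, so levels are compared between groups and not between genes. The counts behind a tested gene ran from 107 for lss in the shallowest library to 3457 for idi1. One library stood apart: with testosterone and calindol, clutch 1 gave the highest level of its group for 7 of the 9 genes. For the 9 genes, calls and counts that it decides are given with and without it. For the other lists only some of them are given in this way. The median coefficient of variation of the 9 genes was 9.9% with EGCG, 21.6% with calindol, 15.1% with testosterone alone and 4.74% with DMSO.

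Of the chosen genes, those of the early steps (hmgcs1, hmgcra, idi1 and fdft1) rose in every exposed group relative to DMSO, by at most 2.43-fold. For hmgcs1, whose enzyme (HMG-CoA synthase) makes the substrate of the rate-limiting step, CPM in clutches 1, 2 and 4 were 128, 118 and 120 with testosterone and EGCG, 168, 121 and 112 with testosterone and calindol, 151, 134 and 111 with testosterone, and 80.3, 80.6 and 79.1 with DMSO. The DMSO libraries lay close together and below every exposed library, while the exposed groups overlapped. The log2 fold change against DMSO was 0.61 ± 0.13 with EGCG (SE, adjusted p = 0.00697), 0.74 ± 0.13 with calindol (adjusted p = 0.000722) and 0.72 ± 0.13 with testosterone alone (adjusted p = 0.00404).

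For hmgcra, whose enzyme (HMG-CoA reductase) is rate-limiting in mammals and is the target of statins, CPM in clutches 1, 2 and 4 were 17.4, 18.5 and 19.4 with testosterone and EGCG, 24, 25.7 and 18.9 with testosterone and calindol, 15.1, 17.5 and 17.2 with testosterone, and 8.89, 7.05 and 12.2 with DMSO. No exposed library reached down to the DMSO libraries. The mean with EGCG, 18.4 ± 0.982 CPM (SD, n = 3), and the mean with testosterone alone, 16.6 ± 1.34 CPM, came from overlapping libraries. Against DMSO the log2 fold change was 0.97 ± 0.17 with EGCG (adjusted p = 0.0022), 1.28 ± 0.17 with calindol (adjusted p = 8.73e-05) and 0.82 ± 0.17 with testosterone alone (adjusted p = 0.00998). Without the DMSO library of clutch 1 the last of these lost the threshold (adjusted p = 0.0554). Its paralogue hmgcrb did not pass the test in any of the 6 comparisons, with CPM of 45.5 to 53.0 with EGCG, 42.8 to 46.8 with calindol, 47.9 to 52.6 with testosterone and 41.7 to 45.5 with DMSO.

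For idi1, whose enzyme interconverts the 5-carbon isoprene units, CPM in clutches 1, 2 and 4 were 104, 120.5 and 117 with testosterone and EGCG, 187, 158 and 154 with testosterone and calindol, 128, 142 and 124 with testosterone, and 84.1, 99.7 and 83.4 with DMSO. None of the 4 groups overlapped with another. The calindol libraries were highest and the EGCG libraries lay between testosterone alone and DMSO. Against DMSO the log2 fold change was 0.36 ± 0.10 with EGCG (adjusted p = 0.0218), 0.90 ± 0.10 with calindol (adjusted p = 1.64e-05) and 0.56 ± 0.10 with testosterone alone (adjusted p = 0.00252). The call with EGCG was lost without the EGCG library of clutch 2 (adjusted p = 0.0931) or 4 (0.0587) and without the DMSO library of clutch 1 (0.0903) or 4 (0.0842).

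For fdft1, whose enzyme (squalene synthase) makes the first product committed to sterols, CPM in clutches 1, 2 and 4 were 25.6, 25.3 and 22.6 with testosterone and EGCG, 23.2, 17.5 and 15.6 with testosterone and calindol, 20.8, 20.8 and 17.8 with testosterone, and 14.3, 10.8 and 13.2 with DMSO. The DMSO libraries were lowest, and the EGCG libraries were above those of testosterone alone and overlapped those of calindol. This was the only one of the 9 genes with its highest mean in the EGCG group. The log2 fold change against DMSO was 0.94 ± 0.15 with EGCG (adjusted p = 0.00105), 0.56 ± 0.15 with calindol (adjusted p = 0.0112) and 0.63 ± 0.15 with testosterone alone (adjusted p = 0.0199). The call with calindol was lost without the calindol library of clutch 1 (adjusted p = 0.0579) or the DMSO library of clutch 2 (0.0584). The call with testosterone alone was lost without the testosterone library of clutch 1 (adjusted p = 0.0568) or 2 (0.0546) and without the DMSO library of clutch 2 (0.0939) or 4 (0.0608).

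Of the 9 genes, sqlea, cyp51 and lss had the 3 largest fold changes against DMSO with calindol and with testosterone alone. With EGCG, sqlea and cyp51 had the 2 largest, while lss (log2 fold change 0.88) was below hmgcra (0.97) and fdft1 (0.94). These 3 genes act from squalene onwards, but so does dhcr7, which had the smallest fold change in each comparison with DMSO. For sqlea, whose enzyme (squalene epoxidase) adds oxygen to squalene and is a second control point of the pathway in mammals, CPM in clutches 1, 2 and 4 were 17.1, 19.1 and 23.2 with testosterone and EGCG, 58.2, 39.0 and 30.9 with testosterone and calindol, 30.0, 25.5 and 19.9 with testosterone, and 6.46, 6.15 and 5.90 with DMSO. Every exposed library was far above the DMSO libraries, and the calindol libraries were above all others. Relative to DMSO, sqlea was 3.24-fold higher with EGCG (log2 fold change 1.69 ± 0.22, adjusted p = 0.000247), 6.93-fold higher with calindol (2.79 ± 0.22, adjusted p = 2.52e-06) and 4.05-fold higher with testosterone alone (2.02 ± 0.22, adjusted p = 5.68e-05). With calindol it had rank 19 by p among all genes tested. Its paralogue sqleb, at 1.19 to 3.19 CPM, did not pass the test in any of the 6 comparisons.

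For lss, whose enzyme (lanosterol synthase) closes the sterol rings, CPM in clutches 1, 2 and 4 were 12.7, 13.3 and 15.3 with testosterone and EGCG, 33.7, 23.3 and 23.2 with testosterone and calindol, 22.2, 18.3 and 15.4 with testosterone, and 7.14, 7.85 and 7.57 with DMSO. The 4 groups did not overlap, although the highest EGCG library and the lowest testosterone library were next to each other. Against DMSO the log2 fold change was 0.88 ± 0.17 with EGCG (adjusted p = 0.00397), 1.83 ± 0.17 with calindol (adjusted p = 5.67e-06) and 1.3 ± 0.17 with testosterone alone (adjusted p = 0.000278).

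For cyp51, whose enzyme removes a methyl group from lanosterol, CPM in clutches 1, 2 and 4 were 48.2, 43.8 and 57.8 with testosterone and EGCG, 172, 102 and 93.3 with testosterone and calindol, 69.6, 87.9 and 59.1 with testosterone, and 26.5, 23.8 and 25.4 with DMSO. Here too the 4 groups did not overlap, and the calindol library of clutch 1 was well above the other calindol libraries. Relative to DMSO, cyp51 was 1.99-fold higher with EGCG (log2 fold change 0.99 ± 0.21, adjusted p = 0.00535), 4.87-fold higher with calindol (2.28 ± 0.20, adjusted p = 5.67e-06) and 2.86-fold higher with testosterone alone (1.52 ± 0.20, adjusted p = 0.00035).

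The last enzyme of the pathway differed least from DMSO. For dhcr7, whose product makes cholesterol from its immediate precursor, CPM in clutches 1, 2 and 4 were 34.5, 39.1 and 46.5 with testosterone and EGCG, 68.0, 46.1 and 49.6 with testosterone and calindol, 45.0, 53.6 and 39.1 with testosterone, and 37.0, 39.9 and 38.4 with DMSO. The DMSO libraries lay within the range of the EGCG libraries and below all calindol libraries. The log2 fold change against DMSO was 0.07 with EGCG (adjusted p = 0.79, 95% interval −0.25 to 0.39), 0.51 ± 0.15 with calindol (adjusted p = 0.0184) and 0.26 with testosterone alone (adjusted p = 0.359, 95% interval −0.06 to 0.57). The call with calindol was lost without the calindol library of clutch 1 (log2 fold change 0.32, adjusted p = 0.085) and without the DMSO library of clutch 1 (0.0676) or 4 (0.0562).

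The receptor gene rose with the enzymes. For ldlra, CPM in clutches 1, 2 and 4 were 47.3, 39.8 and 40.3 with testosterone and EGCG, 70.7, 61.5 and 74.8 with testosterone and calindol, 43.2, 40.0 and 47.9 with testosterone, and 31.1, 32.1 and 29.3 with DMSO. The calindol libraries stood above all others, the EGCG and testosterone libraries lay in the same range, and the DMSO libraries were lowest. Against DMSO the log2 fold change was 0.45 ± 0.10 with EGCG (adjusted p = 0.00762), 1.16 ± 0.10 with calindol (adjusted p = 4.04e-06) and 0.50 ± 0.10 with testosterone alone (adjusted p = 0.00665). For ldlra the calindol library of clutch 1 was not the highest, in contrast to most of the enzymes.

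The regulator insig1 had few counts. Its counts in clutches 1, 2 and 4 were 0, 0 and 0 with testosterone and EGCG, 6, 1 and 0 with testosterone and calindol, 1, 0 and 0 with testosterone, and 0, 1 and 0 with DMSO. A count of 0 allows up to 3 counts, which is 0.356, 0.191 and 0.165 CPM in the EGCG libraries, so no fold change is given. The muscle genes ckma and mylpfa, usually abundant, and the intestinal gene fabp2 were also at or near 0 in all 12 libraries, and whether such low counts come from the embryos or from the annotation and counting was not tested. The related gene insig2 was measured at 8.46 to 13.3 CPM over the 12 libraries and did not pass the test in any of the 6 comparisons.

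**Figure D1:**
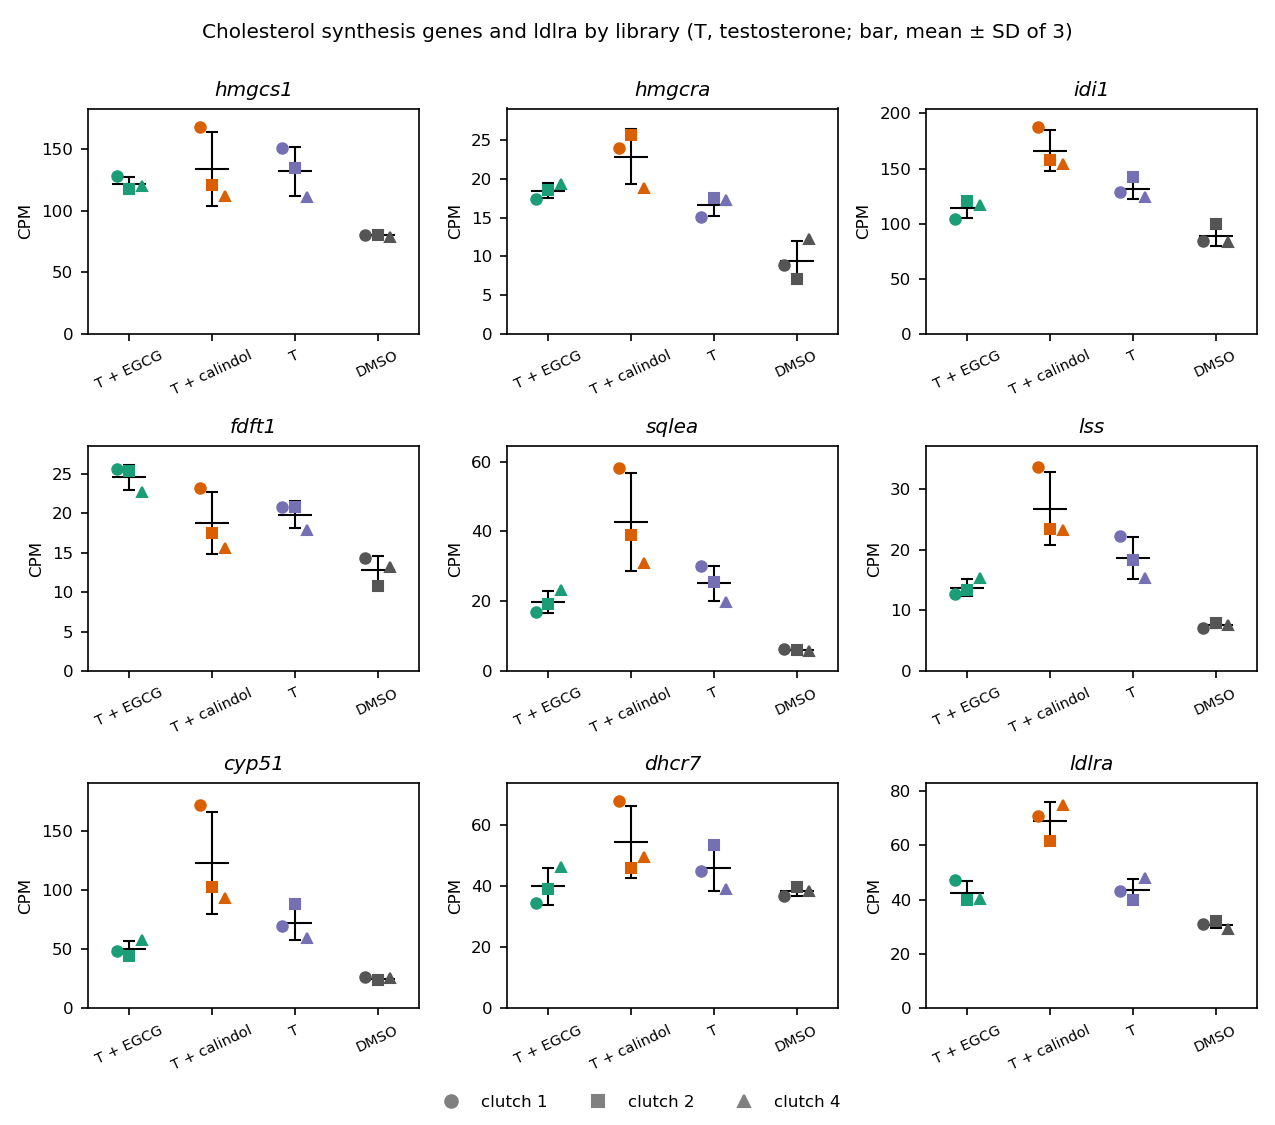
CPM (linear axis from 0) of the 9 tested genes in each library, by group; symbols mark the clutch, the horizontal bar is the mean and the whiskers are 1 SD of 3 libraries. For 8 of the 9 genes, all but dhcr7, every exposed library lies above every DMSO library, as for 2.53% of all genes tested, and for sqlea, lss, cyp51, idi1 and ldlra the 3 calindol libraries are above those of all other groups, as for 9.43% of all genes.

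The first comparison asked what testosterone alone did. Relative to DMSO, 8 of the 9 tested genes rose with testosterone, all but dhcr7, and none of the 9 had a lower estimate. Over all genes tested, 6.32% passed, 2.93% higher and 3.39% lower. The median log2 fold change of the 9 genes was 0.72, against 0.0015 for all genes tested. Of the 9, 3 (sqlea, cyp51 and lss) passed with a rise of at least 1 in log2, as did 131 of all 20237 genes tested. Compared clutch by clutch, the log2 ratio was above 0 in 27 of 27 gene and clutch pairs, and in 50% of such pairs over all genes tested. For 8 of the 9 genes every testosterone library lay above every DMSO library, so their ratios could only be above 0 and add nothing further.

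With testosterone and calindol, all 9 tested genes rose relative to DMSO, where 27.4% of all genes tested passed, 11.5% higher and 15.9% lower. The median log2 fold change was 1.16, against 0.0092 for all genes. Of the 9 genes, 5 (sqlea, cyp51, lss, hmgcra and ldlra) passed with a rise of at least 1 in log2, as did 267 of all 20237 genes tested. Without the calindol library of clutch 1, 7 of the 9 calls held, the exceptions being dhcr7 and fdft1.

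With testosterone and EGCG, 8 of the 9 rose relative to DMSO, again all but dhcr7, where 17% of all genes passed, 7.69% higher and 9.33% lower. The median log2 fold change was 0.88, against 0.0025 for all genes. Of the 9, only sqlea passed with a rise of at least 1 in log2, as did 193 of all 20237 genes tested. In 25 of 27 gene and clutch pairs the level was above that of the DMSO library of the same clutch, against 50.2% of such pairs over all genes. Here too this was fixed for the 8 genes whose EGCG libraries all lay above the DMSO libraries. These 3 comparisons share the DMSO libraries.

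**Figure D2:**
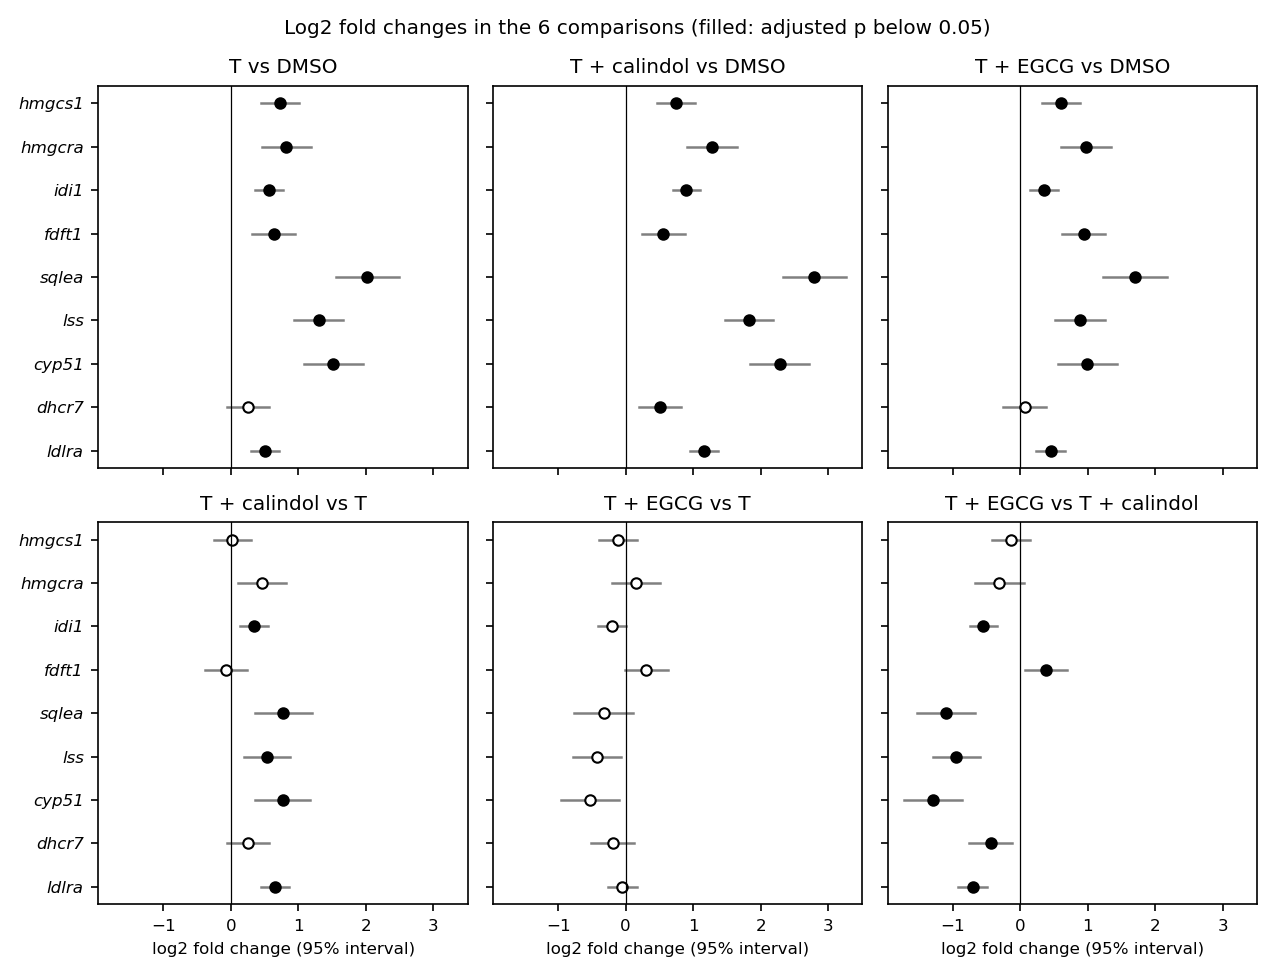
Log2 fold change (x axis) of each tested gene in the 6 comparisons, with the 95% interval as a line; filled points have an adjusted p below 0.05. The 3 upper panels, against DMSO, hold 8, 9 and 8 filled points to the right of 0, and the panel of testosterone with EGCG against testosterone alone holds none.

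Adding calindol to testosterone raised 5 of the 9 genes further: ldlra by a log2 fold of 0.66 ± 0.10 (adjusted p = 0.00027), sqlea by 0.77 ± 0.20 (0.00952), cyp51 by 0.76 ± 0.19 (0.0092), lss by 0.53 ± 0.16 (0.0233) and idi1 by 0.34 ± 0.09 (0.0165). In this comparison 25.8% of all genes passed, 11% higher and 14.8% lower. The median log2 fold change of the 9 genes was 0.46, against 0.0078 for all genes. For hmgcra the value was 0.46 (adjusted p = 0.0533, 95% interval 0.11 to 0.81). It passed without the calindol library of clutch 4 (adjusted p = 0.0258) and without the DMSO library of clutch 2 (0.0319) or 4 (0.0249). The values for hmgcs1 (0.02, interval −0.26 to 0.30), dhcr7 (0.25, −0.06 to 0.56) and fdft1 (−0.07, −0.38 to 0.24) did not pass.

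This second step rested in part on the calindol library of clutch 1. Without it, 3 of the 9 genes passed, at log2 fold changes of 0.49 for sqlea (adjusted p = 0.0443) and 0.44 for cyp51 (0.0322), with ldlra the third. Then lss had 0.33 (adjusted p = 0.119) and idi1 had 0.25 (0.0629). Without the testosterone library of clutch 4, lss (adjusted p = 0.0977) and idi1 (0.0528) were lost as well. For ldlra the log2 ratios within clutches 1, 2 and 4 were 0.71, 0.62 and 0.64, while for cyp51 they were 1.31, 0.22 and 0.66.

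Adding EGCG to testosterone moved none of the 9 genes past the threshold in edgeR, and DESeq2 called none either. In this comparison 11.6% of all genes passed in edgeR, 6.05% higher and 5.59% lower. At an unadjusted p under 0.05 in edgeR, 3 of the 9 (lss, cyp51 and idi1) were lower. The share of all genes under that looser threshold is not given here, so this count has no background. The median log2 fold change of the 9 genes was −0.19, against −0.0182 for all genes. The 95% intervals were −0.95 to −0.10 for cyp51 (adjusted p = 0.0978), −0.77 to −0.07 for lss (0.114), −0.76 to 0.11 for sqlea (0.326) and −0.26 to 0.16 for ldlra (0.788). Without the calindol library of clutch 1, cyp51 (adjusted p = 0.0128) and lss (0.0456) passed, in a fit where 3199 of all genes passed against 2355 with that library. In clutch 4 the EGCG and testosterone libraries differed least for these genes, at log2 ratios of −0.03 for cyp51 and −0.01 for lss, against −1.0 and −0.46 in clutch 2.

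The groups with the 2 antagonists were also set against each other. With EGCG rather than calindol, 6 of the 9 genes were lower, at log2 fold changes of −1.29 ± 0.20 for cyp51 (adjusted p = 0.000119), −1.10 ± 0.20 for sqlea (0.000518), −0.95 ± 0.16 for lss (0.000314), −0.71 ± 0.10 for ldlra (5.24e-05), −0.55 ± 0.10 for idi1 (0.000371) and −0.44 ± 0.15 for dhcr7 (0.0269). One gene, fdft1, was higher with EGCG, by 0.38 ± 0.15 (adjusted p = 0.0489). The background was high, since 43.1% of all genes tested passed, 21.1% higher and 22% lower with EGCG. The median log2 fold change of the 9 genes was −0.55, against −0.0645 for all genes. The call for dhcr7 was lost without the EGCG library of clutch 1 (adjusted p = 0.0949) or 2 (0.0722) or the calindol library of clutch 1 (log2 fold change −0.26, adjusted p = 0.13). The call for fdft1 was lost without any library other than the calindol one of clutch 1 and the DMSO one of clutch 2, that is in 10 of 12 fits, with adjusted p of 0.0523 to 0.204, the highest without the calindol library of clutch 4. For hmgcra (−0.31, interval −0.66 to 0.05) and hmgcs1 (−0.14, −0.42 to 0.14) the groups did not differ past the threshold.

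Ordered by mean CPM, 7 of the 9 genes had calindol highest, then testosterone alone, then EGCG, then DMSO. Neighbours in that order differed past the threshold between calindol and testosterone alone for 5 of these 7 genes, between testosterone alone and EGCG for none, and between EGCG and DMSO for all but dhcr7. For hmgcra the EGCG mean came before that of testosterone alone, and for fdft1 the order was EGCG, testosterone alone, calindol and DMSO.

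The rest of the sterol pathway was read in the same way. Of 18 further genes of mevalonate and sterol synthesis, 17 were found and tested. With testosterone and EGCG, 8 rose relative to DMSO, where 7.69% of all genes did, among them msmo1, a sterol methyl oxidase (log2 fold change 1.39, adjusted p = 0.00127), mvda, mevalonate diphosphate decarboxylase (0.85, 0.00155), and tm7sf2, a sterol reductase (1.46, 0.00553). This count of 8 fell to 4 without the EGCG library of clutch 2 or the DMSO library of clutch 1 or 2, and to 5 without the EGCG library of clutch 1 or 4 or the DMSO library of clutch 4. With testosterone and calindol, 13 rose (11.5% of all genes), led by mvda (1.63, adjusted p = 4.43e-06), hsd17b7, a sterol ketoreductase (1.44, 7.15e-06), and msmo1 (2.29, 8.36e-06). With testosterone alone, 9 rose (2.93% of all genes), among them msmo1 (1.84, adjusted p = 0.000147) and hsd17b7 (1.07, 0.000237). The list's median log2 fold change was 0.35 with EGCG, 0.94 with calindol and 0.63 with testosterone alone. Estimates were below 0 for 4 of the 17 with EGCG, 2 with calindol and 4 with testosterone alone. The falls past the threshold with calindol numbered 0, or 1 without the calindol library of clutch 1. With the size factors or the test of DESeq2, and all libraries kept, there was also 1.

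Between the exposures, msmo1 had 6.28, 7.96 and 6.17 CPM with EGCG, 16.1, 11.8 and 10.2 CPM with calindol, 9.08, 11.7 and 7.21 CPM with testosterone, and 2.54, 2.60 and 2.67 CPM with DMSO. Calindol added to testosterone raised 8 of the 17 genes (11% of all genes), led by faxdc2 (log2 fold change 0.51, adjusted p = 0.0012), pmvk, phosphomevalonate kinase (0.97, 0.00384), and mvda (0.61, 0.00409). It lowered ggps1, whose enzyme takes the pathway towards geranylgeranyl groups instead of sterols (−0.43, adjusted p = 0.00347). Without the calindol library of clutch 1, or the testosterone library of clutch 4, 5 genes rose. EGCG added to testosterone lowered 2 of the 17 (5.59% of all genes), among them hsd17b7 (−0.72, adjusted p = 0.00675). This count was 1 without the EGCG library of clutch 2 or the testosterone library of clutch 2. With EGCG rather than calindol, 11 of the 17 were lower (22% of all genes), led by hsd17b7 (−1.09, adjusted p = 2.04e-05), sc5d, a sterol desaturase (−1.10, 0.000144), and mvda (−0.79, 0.000352), while ggps1 was higher (0.54, 0.000297).

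**Figure D3:**
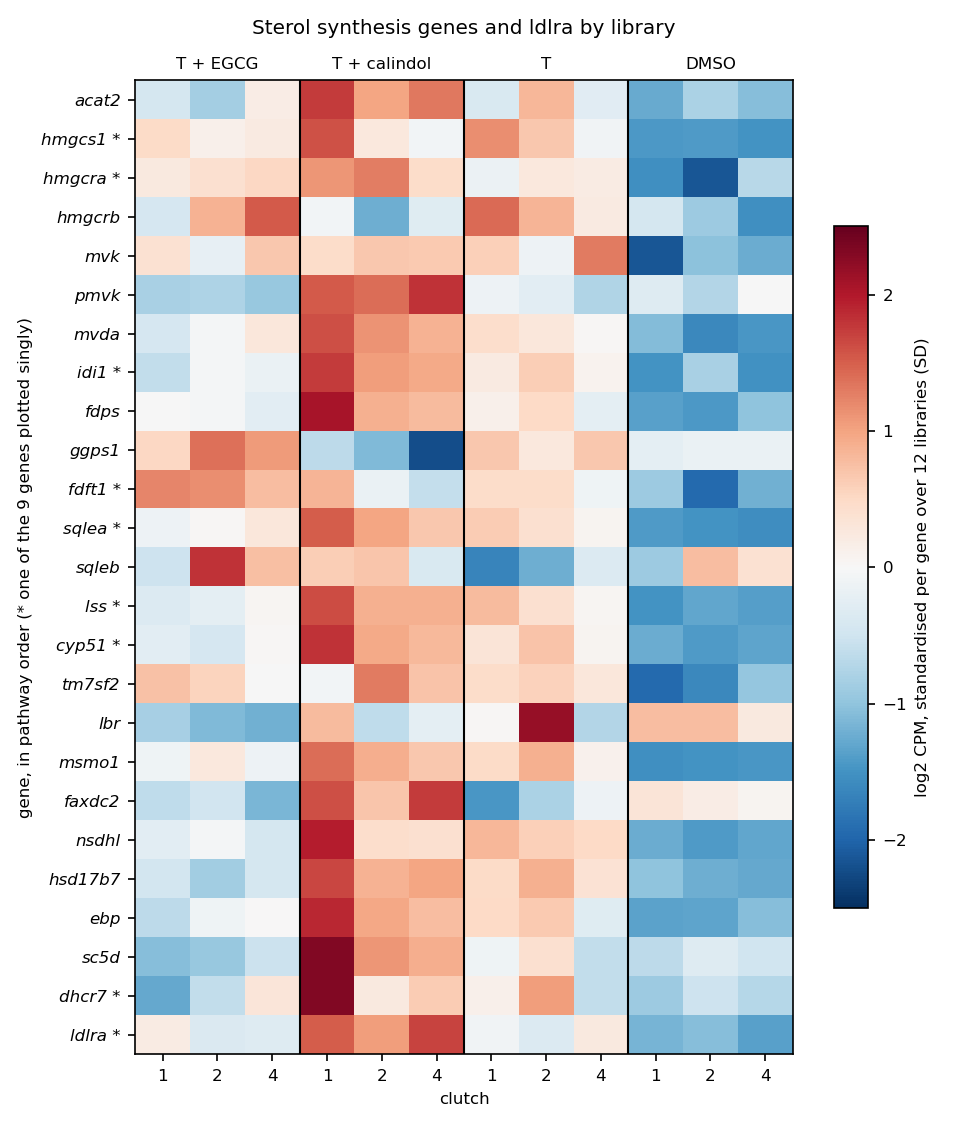
Log2 CPM of 24 sterol synthesis genes and ldlra (rows, in pathway order, asterisks for the 9 genes described singly) in the 12 libraries (columns, by group and clutch), each row standardised to mean 0 and SD 1 over the libraries. DMSO columns are mostly blue and calindol columns mostly red, while ggps1, sqleb, lbr, faxdc2 and hmgcrb follow other patterns.

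The transcription factors behind these genes in mammals were also changed. For srebf2, the SREBP gene most tied to cholesterol, CPM in clutches 1, 2 and 4 were 229, 227 and 217 with testosterone and EGCG, 173, 157 and 160 with testosterone and calindol, 181, 179 and 163 with testosterone, and 113, 102 and 127 with DMSO. The EGCG libraries were above those of all other groups, and the DMSO libraries were lowest. Against DMSO, srebf2 rose by a log2 fold of 0.97 with EGCG (adjusted p = 3.38e-06), 0.52 with calindol (0.000269) and 0.61 with testosterone alone (0.000295). For srebf1 the values were 0.96 with EGCG (adjusted p = 1.46e-05), 0.50 with calindol (0.000866) and 0.37 with testosterone alone (0.027). The last was lost without the testosterone library of clutch 1 (adjusted p = 0.0838) or 2 (0.0537) or the DMSO library of clutch 1 (0.115) or 2 (0.118).

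Among the other SREBP-processing genes, scap, the escort protein, rose by 0.42 with EGCG against DMSO (adjusted p = 0.0132) and fell by 0.45 with calindol (0.0046). The rise was lost without the EGCG library of clutch 2 (0.0799) or the DMSO library of clutch 1 (0.061). The protease gene mbtps2 rose by 0.52 with calindol (adjusted p = 0.00158). In all, 3 of 5 tested genes of this list rose with EGCG, 3 rose and 1 fell with calindol, and 2 rose with testosterone alone. Of all genes, 7.69% rose with EGCG, 11.5% rose and 15.9% fell with calindol, and 2.93% rose with testosterone alone. The partner protease gene mbtps1 had a count in only 1 library and was not tested.

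Relative to testosterone alone, EGCG raised srebf1 by a log2 fold of 0.59 (adjusted p = 0.00217), scap by 0.51 (0.00818) and srebf2 by 0.36 (0.0113). Without the EGCG library of clutch 2 only srebf1 passed (scap 0.0563, srebf2 0.0591), and without that of clutch 1 srebf2 was lost (0.0564). Calindol added to testosterone raised mbtps2 by 0.35 (adjusted p = 0.019) and lowered scap (log2 fold change −0.36, 0.0205). The first was lost without the testosterone library of clutch 1 (0.0577) or 4 (0.0519), and the second without these (0.087 and 0.0727) or the calindol library of clutch 1 (0.091). With EGCG rather than calindol, scap (0.87, adjusted p = 1.4e-05), srebf2 (0.46, 0.000339) and srebf1 (0.46, 0.000853) were higher and mbtps2 (−0.40, 0.00625) was lower.

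Of 18 further genes of lipoprotein receptors and sterol uptake, 16 were tested, and ldlrb, the second LDL receptor gene, rose in all 3 comparisons with DMSO. Its CPM in clutches 1, 2 and 4 were 70.2, 76.1 and 78.0 with testosterone and EGCG, 72.4, 67.2 and 68.4 with testosterone and calindol, 61.0, 61.3 and 46.2 with testosterone, and 39.7, 31.4 and 35.2 with DMSO. Against DMSO the log2 fold change was 1.08 with EGCG (adjusted p = 2.88e-05), 0.97 with calindol (2.68e-05) and 0.66 with testosterone alone (0.00207). The EGCG and calindol libraries overlapped for ldlrb, which they did not for ldlra.

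With testosterone alone, ldlrb was the one gene of the 16 that passed, or 1 of 2 without the testosterone library of clutch 4. Of all genes tested, 6.32% passed there. With calindol, 6 of the 16 rose, where 11.5% of all genes did. Among them were scarb1, a receptor for high-density lipoprotein (0.56, adjusted p = 0.00109), and npc1, a lysosomal cholesterol transporter (0.37, 0.00137). Another 5 fell, where 15.9% of all genes did. These were led by vldlr, the receptor for very-low-density lipoprotein (−0.76, adjusted p = 1.12e-05), then lrp1aa (−0.30, 0.0117) and lrp1ab (−0.24, 0.0276), both LDL receptor-related proteins. The number of falls was 1 without the calindol library of clutch 4 or the DMSO library of clutch 4, and 3 without the DMSO library of clutch 1. Of the genes named, lrp1aa was lost in the first of these fits (0.0588) and the second (0.0721), and lrp1ab in all 3 (0.142, 0.102 and 0.0903). With EGCG, vldlr rose by 0.28 (adjusted p = 0.0201), lost without the EGCG library of clutch 2 (0.0895) or the DMSO library of clutch 1 (0.0968). The ubiquitin ligase gene mylipb fell by 0.46 (adjusted p = 0.043), a call lost by DESeq2 (0.0589), without any single EGCG library (0.145, 0.0775 and 0.0572 for clutches 1, 2 and 4) or DMSO library (0.0517, 0.149 and 0.101) and without the calindol library of clutch 4 (0.0537). The cholesterol carrier gene stard4 did not pass in any of the 6 comparisons.

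Relative to testosterone alone, calindol raised scarb1 by a log2 fold of 0.63 (adjusted p = 0.000644), npc1 by 0.29 (0.00833) and npc2, the partner of npc1, by 0.40 (0.0203). It lowered vldlr (log2 fold change −0.69, adjusted p = 4.13e-05), lrp1aa (−0.27, 0.0241) and mylipb (−0.46, 0.0304). In all, 4 genes of this list rose and 3 fell, where 11% of all genes rose and 14.8% fell. However, 2 rose without the calindol library of clutch 1, and 1 fell without the calindol library of clutch 4 or the testosterone library of clutch 1. The call for npc2 was lost without the testosterone (0.069) or the calindol library (0.085) of clutch 1, and that for lrp1aa without the testosterone library of clutch 1 (0.148) or the calindol library of clutch 4 (0.111). The call for mylipb was lost without any single testosterone library (0.0525, 0.0763 and 0.078) and without the calindol library of clutch 1 (0.083) or 4 (0.0895). EGCG added to testosterone raised 4 genes, where 6.05% of all genes rose. This count was 1 without the EGCG library of clutch 2, and 2 without that of clutch 1 or the testosterone library of clutch 4. The rises were led by lrp6, a receptor of the Wnt pathway (0.47, adjusted p = 0.00683), vldlr (0.35, 0.0111) and ldlrb (0.42, 0.0243). Without the EGCG library of clutch 2, vldlr (0.0633) and ldlrb (0.0943) were lost, and ldlrb was also lost without the EGCG library of clutch 1 (0.0575) or 4 (0.0663) or the testosterone library of clutch 4 (0.0709).

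With EGCG rather than calindol, vldlr (log2 fold change 1.04, adjusted p = 3.87e-07), lrp1aa (0.49, 0.000206) and lrp6 (0.48, 0.000633) were higher, and scarb1 (−0.80, 3.76e-05), npc2 (−0.64, 0.000494) and npc1 (−0.37, 0.000798) were lower. Of the 16 genes, 4 were higher and 5 lower, shares close to the 21.1% and 22% of all genes.

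Sterol efflux, esterification and breakdown formed another list. Of 19 genes, 16 were tested, and relative to DMSO 6 fell with EGCG, where 9.33% of all genes fell, 6 fell and 2 rose with calindol (15.9% and 11.5% of all genes), and 6 fell with testosterone alone (3.39%). The list's median log2 fold change was −0.21 with EGCG, −0.08 with calindol and −0.38 with testosterone alone. For cyp7a1, the rate-limiting enzyme of bile acid synthesis, CPM in clutches 1, 2 and 4 were 6.76, 6.43 and 4.35 with testosterone and EGCG, 1.90, 1.57 and 6.88 with testosterone and calindol, 3.42, 0.867 and 4.80 with testosterone, and 21.0, 25 and 26.2 with DMSO. All exposed libraries were far below DMSO. The log2 fold change was −2.06 with EGCG (adjusted p = 0.00876), −2.83 with calindol (0.000544) and −2.97 with testosterone alone (0.00188).

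For abca1a, a cholesterol exporter that sterol-loaded cells turn on through LXR in mammals, CPM were 122, 129 and 108 with testosterone and EGCG, 58.8, 74.3 and 72.3 with testosterone and calindol, 74.1, 73.5 and 98.8 with testosterone, and 145, 144 and 153 with DMSO. The EGCG libraries lay between the DMSO libraries and the other exposed libraries. The log2 fold change against DMSO was −0.30 with EGCG (adjusted p = 0.0844), −1.11 with calindol (1.45e-05) and −0.84 with testosterone alone (0.00043). The leading other genes were cyp46a1.1, a cholesterol hydroxylase, with testosterone alone (−1.32, adjusted p = 0.000777), apoea, an apolipoprotein E gene, with EGCG (−0.86, 2.88e-05) and calindol (−0.45, 0.00142), and abca1b (−0.64, 0.000848) and apoa1b (−0.47, 0.00223) with EGCG. With calindol, lcat, which esterifies cholesterol in plasma, rose by 0.87 (adjusted p = 0.000405). The LXR gene nr1h3 rose by 0.23 (0.0397), a call lost without the calindol library of clutch 2 (0.131) or 4 (0.0627), the EGCG library of clutch 4 (0.052) or the DMSO library of clutch 1 (0.162) or 4 (0.139).

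Between the exposures, calindol added to testosterone raised lcat (log2 fold change 0.67, adjusted p = 0.00314), apoa1b (0.31, 0.0128) and cyp46a1.2 (0.71, 0.021). The last was lost without the calindol library of clutch 1 (0.0641) or the testosterone library of clutch 1 (0.0533) or 4 (0.0732). EGCG added to testosterone gave 3 higher and 3 lower calls, where 6.05% of all genes were higher and 5.59% lower. The higher calls were abca1a (0.54, adjusted p = 0.0106), abcg1 (0.85, 0.0249) and the esterifying soat2 (0.93, 0.0359). The lower calls were apoeb (−0.61, 0.011), abca1b (−0.44, 0.0128) and apoea (−0.38, 0.0149). None of these 6 calls held without the EGCG library of clutch 2 (adjusted p = 0.0642, 0.0794, 0.126, 0.0566, 0.0661 and 0.0809 in the order given). Without the EGCG library of clutch 1, abcg1 (0.101), soat2 (0.103), apoeb (0.0539) and abca1b (0.0575) were lost, and without the testosterone library of clutch 2, abca1a (0.0539), abcg1 (0.103), soat2 (0.143) and apoea (0.0678). The call for soat2 was also lost with clutch as a block (0.0634), without the EGCG or testosterone library of clutch 4 (0.0589 and 0.0905) and without any single DMSO library (0.0538, 0.0506 and 0.0505). With EGCG rather than calindol, abca1a (0.81, adjusted p = 7.41e-05), soat2 (1.29, 0.00139) and abcg1 (0.84, 0.00655) were higher, and lcat (−0.82, 0.00038), abca1b (−0.53, 0.000601) and apoa1b (−0.41, 0.00112) were lower.

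**Figure D4:**
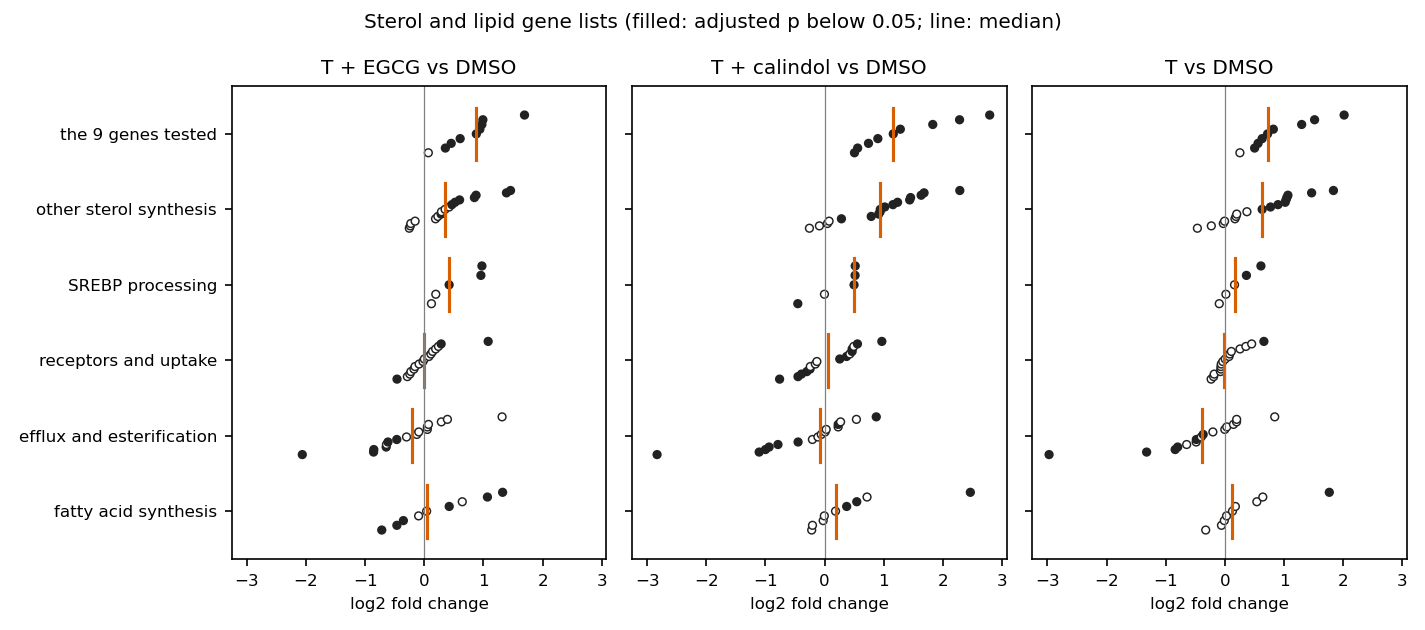
Log2 fold change (x axis) against DMSO of every tested gene of 6 lists, with EGCG, calindol or testosterone alone; filled points have an adjusted p below 0.05 and the orange line is the list's median. The medians of both synthesis lists lie to the right of 0 in each panel, and the lowest gene of the efflux list is cyp7a1 at −2.06, −2.83 and −2.97.

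The libraries are of whole embryos, in which fewer cells of a type and less RNA per cell cannot be told apart, and organ markers moved with the exposures. Of 10 tested intestine rows, which include 2 identifiers of apoa4b.2, 9 fell with EGCG, 7 with calindol and 6 with testosterone alone relative to DMSO. In the same order, 9.33%, 15.9% and 3.39% of all genes fell. The bile acid binding gene fabp6 had a log2 fold change of −4.05 with EGCG (adjusted p = 9.22e-05) and −4.86 with testosterone alone (3.3e-05), and the peptide transporter slc15a1b had −2.44 with calindol (3.4e-05). The summed level of the intestine list was 790 to 797 CPM with EGCG, 1042 to 1378 CPM with calindol, 850 to 1042 CPM with testosterone and 1111 to 1236 CPM with DMSO. Most of this sum was apoa4b.1, at 492 to 1028 CPM over the 12 libraries, so it says little about the other markers. The defining marker fabp2 was at 0 in all 12 libraries.

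The liver list summed to 4097 to 4204 CPM with EGCG, 4918 to 6629 CPM with calindol, 4771 to 5483 CPM with testosterone and 6245 to 6461 CPM with DMSO. The apolipoprotein gene apoa2, at 2207 to 4000.5 CPM, was the largest part of this sum in each of the 12 libraries. For fabp10a, a liver fatty acid binding protein, CPM in clutches 1, 2 and 4 were 132, 122 and 73.6 with testosterone and EGCG, 54.2, 73.9 and 70.9 with testosterone and calindol, 91.7, 37.6 and 89.8 with testosterone, and 41.7, 33.3 and 38.9 with DMSO. It was the 1 gene of the 12 that rose with EGCG (log2 fold change 1.52, adjusted p = 0.00249), or 1 of 2 without the EGCG library of clutch 4, while 5 fell. Of all genes, 7.69% rose and 9.33% fell there. With calindol 2 rose and 1 fell, so that 3 of the 12 passed where 27.4% of all genes did. Without the calindol library of clutch 1 the falls numbered 4, without the testosterone library of clutch 2 they numbered 2, and without the calindol library of clutch 2 or 4, the EGCG library of clutch 2 or any single DMSO library 1 gene rose. With testosterone alone 2 fell (3.39% of all genes), led by rbp4, a retinol carrier (−0.48, adjusted p = 0.0066). Only 1 fell without any single DMSO or EGCG library or the testosterone library of clutch 1 or 4. The rises numbered 0, or 1 without the calindol library of clutch 1, the testosterone library of clutch 2 or the EGCG library of clutch 4. None of the 12 was at 0 in any library. The list of yolk syncytial layer and lipoprotein export summed to 6712 to 7198 CPM with EGCG, 9869 to 14774 CPM with calindol, 8368 to 11835 CPM with testosterone and 9880 to 11197 CPM with DMSO. Most of this sum was apobb.1, at 4987 to 12117 CPM over the 12 libraries, so it says little about the other genes. Of the 7 tested genes of the list 6 fell with EGCG, where 9.33% of all genes did. With calindol 1 rose and 1 fell, where 11.5% and 15.9% of all genes did. However, 0 rose without the calindol library of clutch 1 or 2 or the DMSO library of clutch 1 or 4, and 2 fell without the calindol library of clutch 4. With testosterone alone 1 rose and 1 fell, where 2.93% and 3.39% of all genes did. The falls numbered 0 without any single DMSO library or the testosterone library of clutch 4. They numbered 2 without the testosterone library of clutch 2 or any single calindol library. In this list hnf4a had at most 0.304 CPM.

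The calindol library of clutch 1, highest for most of the 9 genes, also had the highest sum of its group for the liver, intestine, yolk and muscle lists and the lowest for neurons. The part of these markers in the sterol results was not tested.

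Neuron markers summed to 2642 to 2868 CPM with EGCG, 1311 to 1799 CPM with calindol, 1986 to 2369 CPM with testosterone and 2287 to 2369 CPM with DMSO. Relative to DMSO, 2 of 7 rose with EGCG, where 7.69% of all genes did. This count was 0 without the EGCG or DMSO library of clutch 1 or 2, and 1 without the DMSO, testosterone or calindol library of clutch 4. With calindol 5 fell (15.9% of all genes), led by elavl4 (−0.98, adjusted p = 9.39e-06) and elavl3 (−0.80, 4.47e-05), both neuronal RNA-binding proteins. With testosterone alone none passed in edgeR, where 1 was lower at an unadjusted p under 0.05 and 1 was called by DESeq2. The share of all genes at that unadjusted p is not given here. Without the calindol library of clutch 1 or 4, 1 fell in edgeR. Glia markers summed to 1554 to 1764 CPM with EGCG, 1103 to 1214 CPM with calindol, 1408 to 1539 CPM with testosterone and 1534 to 1564 CPM with DMSO, and 2, 1 and 1 of 7 fell with EGCG, calindol and testosterone alone, where 9.33%, 15.9% and 3.39% of all genes fell. The EGCG count was 0 without the EGCG library of clutch 1 or the DMSO library of clutch 2, and 1 without the EGCG library of clutch 2, the DMSO library of clutch 1 or 4 or the calindol library of clutch 4. The calindol count was 2 without the testosterone library of clutch 2 or 4. The testosterone count was 0 without any single DMSO library, the testosterone or EGCG library of clutch 1 or 2, or the calindol library of clutch 2. Muscle markers summed to 31413 to 34213 CPM with EGCG, 41324 to 46472 CPM with calindol, 33639 to 41095 CPM with testosterone and 40183 to 41853 CPM with DMSO. The muscle list has 7 rows for 6 gene symbols. Of 5 tested muscle rows 2 fell with EGCG (9.33% of all genes), or 4 without the calindol library of clutch 1. With calindol 1 rose (11.5% of all genes), and 0 without the calindol library of clutch 1 or the DMSO library of clutch 2 or 4. With testosterone alone none passed in edgeR or DESeq2, while 2 were lower at an unadjusted p under 0.05, again without a share of all genes. The muscle genes ckma and mylpfa were at or near 0 in all libraries.

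**Figure D5:**
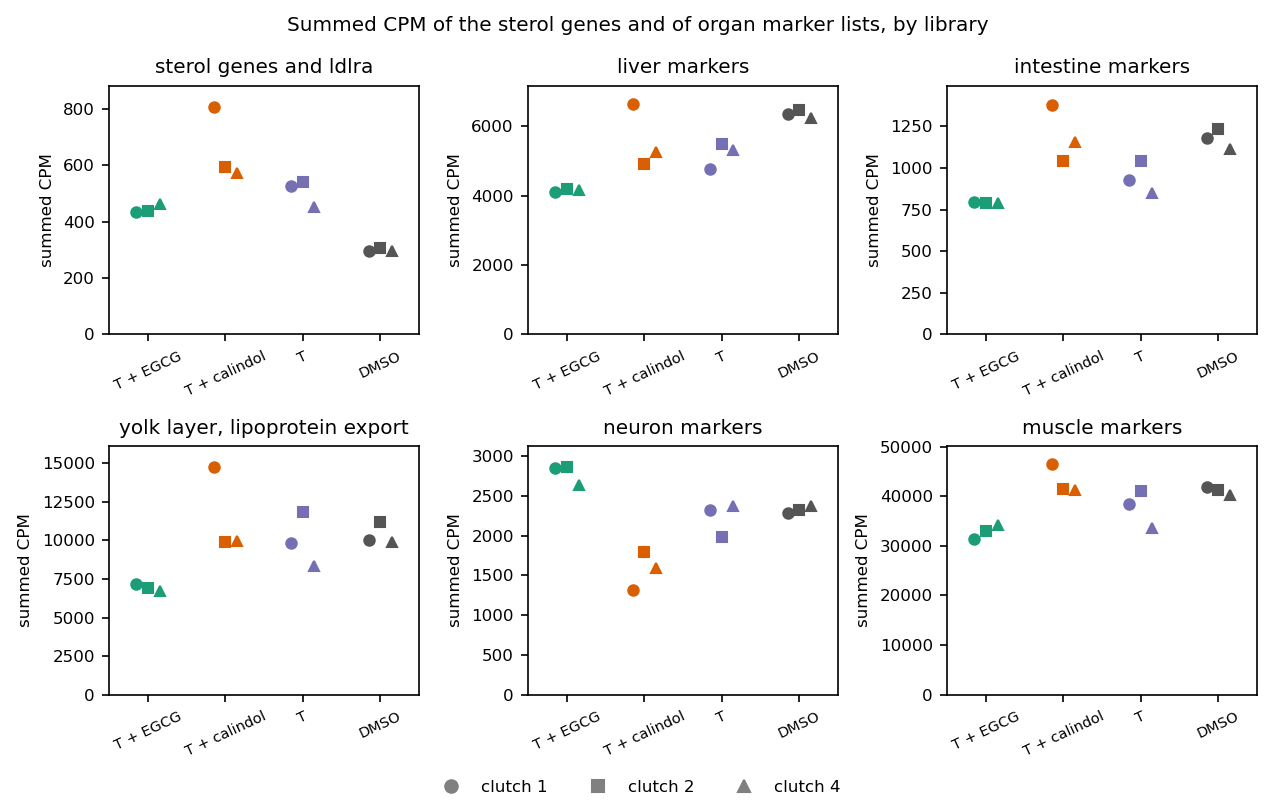
Summed CPM (linear axis from 0) of the 10 sterol genes and of 5 organ marker lists in each library, by group; symbols mark the clutch. The sterol sum is 435 to 462 CPM with EGCG, 572 to 806 CPM with calindol, 452 to 540 CPM with testosterone and 295 to 308 CPM with DMSO, whereas the liver sum is highest with DMSO except for the calindol library of clutch 1.

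The genes whose pattern over the 12 libraries was most like the mean of the 9 were found by the root mean square difference of standardised log2 CPM, among 15577 candidates with a median difference of 1.29. The 10 nearest included lipg, an endothelial lipase (0.19), msmo1 (0.22), mvda (0.22), scarb2a, a lysosomal membrane receptor (0.22), paics, an enzyme of purine synthesis (0.23), fdps, which makes farnesyl diphosphate (0.24), limk2, a kinase (0.25), ebp, a sterol isomerase (0.25), and krt91, a keratin (0.27). Of the 10, 4 are in the sterol synthesis list. For lipg, mean CPM was 35.2 ± 4.55 with EGCG, 64.1 ± 13.9 with calindol, 42.2 ± 3.94 with testosterone and 20.7 ± 1.01 with DMSO (SD, n = 3 each). Of the 9 genes themselves, sqlea was nearest to their mean pattern (0.15) and fdft1 was farthest (0.74), followed by dhcr7 (0.62).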

How the data were processed

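The deposited table holds counts of reads per gene for all 12 libraries. Per the submitters' processing notes, Trim Galore 0.6.10, STAR 2.7.1a, featureCounts and the genome build GRCz11 were used; per the labels, the kit was directional and selected poly(A) RNA. The strand setting, how multi-mapping reads were handled and the annotation are not given in the sources used here, so reads shared by paralogues may be split differently from their origin. No positions or sequences are given.

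The counts as deposited were tested with edgeR 4.0.16 (R 4.3.3): filterByExpr (minimum count 10) kept 20237 of 32520 genes, trimmed-mean-of-M scaling was applied, and 1 quasi-likelihood model with 4 group means was fitted to all 12 libraries, leaving 8 residual degrees of freedom. Another 5732 genes had no count in any library, and 577 symbols belong to more than 1 identifier. Standard errors and 95% intervals come from the same fit. CPM divide the counts by the scaled total of the tested genes. Precision is set by totals of 8181295 to 22510680 counts; the limit that a count of 0 allows covers counting error only. Between replicates, chi-square divided by its degrees of freedom was 3.09 to 22.7, above the value of counting error alone. The procedure was checked on simulated counts.

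The clutch number marks a shared clutch and so pairs libraries across groups. Deviations from the group means correlated across genes, for libraries of 1 clutch, at a mean of 0.012 (18 pairs, −0.0864 to 0.103) and those of different clutches at −0.00578 (36 pairs, −0.232 to 0.217). The fit has no clutch term, and clutch as a block was an alternative, as were DESeq2 1.42.0 (its size factors and its test), no filter, the 6 libraries of a comparison alone, a log2 fold change of at least 1, and leaving out each library. The 10 genes and all lists were chosen with earlier results of these data known. From each other list the text names, per comparison, up to 3 genes past the threshold with the smallest p in each direction, from marker lists at most 2; hmgcrb, sqleb, insig2, mbtps1, stard4 and the genes at 0 were named after their values were seen. The genes acly, fasn, lipa, npc1l1, mvdb and cyp27a1.1 were not analysed here. Some genes that the lists and the naming rules select are counted but not reported singly here.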

Additional observations from a re-analysis of the deposited data

How the results depend on the processing

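Each of the 37 member results past the threshold had 17 alternatives, which leave out that of a log2 fold change of at least 1. They include fits without a library of a group outside the comparison. Of the 37 results, 28 stayed past the threshold in all 17, and none changed sign. In all, 34 of 629 alternatives lost a call. With clutch as a replicate block the member counts were the same in all 6 comparisons, and all genes called numbered 1082 (testosterone against DMSO), 5230 (calindol against DMSO), 3002 (EGCG against DMSO), 4859 (calindol against testosterone), 1811 (EGCG against testosterone) and 8458 (EGCG against calindol), against 1278, 5535, 3445, 5225, 2355 and 8719 without it. In the same order, a log2 fold change of at least 1 left 429, 848, 639, 761, 206 and 2065 genes, and among the members 3, 5, 1, 0 and 0 higher in the first 5 comparisons and 0 higher and 2 lower in the last. With the 6 libraries compared alone, all genes called were 5876 for EGCG against DMSO and 3303 for calindol against testosterone. Without a filter no member was higher with EGCG than with calindol (0, against 1).

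Leaving out each library in turn gave 7 to 8, 7 to 9 and 7 to 8 members higher than DMSO with testosterone, calindol and EGCG, 3 to 6 higher with calindol than with testosterone, 0 to 2 lower with EGCG than with testosterone, and 0 to 1 higher and 5 to 6 lower with EGCG than with calindol. All genes called ran over 624 to 1649, 4115 to 5911, 1647 to 4252, 4049 to 5456, 584 to 3199 and 7074 to 9016. The sign changed in 6 alternatives of 5 member results under the threshold, and these ranged, over the libraries left out, from −0.056 (without the EGCG library of clutch 4) to 0.15 for dhcr7 with EGCG against DMSO, from −0.17 (without the calindol library of clutch 1; −0.082 without the testosterone library of clutch 4) to 0.15 for hmgcs1 with calindol against testosterone, from −0.25 to 0.058 (without the calindol library of clutch 4) for fdft1 in the same comparison, from −0.13 to 0.020 (without the testosterone library of clutch 4) for ldlra with EGCG against testosterone, and from −0.26 to 0.050 (without the calindol library of clutch 1) for hmgcs1 with EGCG against calindol. The cause was not tested. With the 6 libraries compared alone, lss for calindol against testosterone (adjusted p = 0.0754) and dhcr7 for EGCG against calindol (0.0537) were lost, as were, in other lists, srebf1 for testosterone against DMSO (0.0608) and, for calindol against testosterone, scap (0.0862), npc2 (0.0604), lrp1aa (0.0743), mylipb (0.0717) and apoa1b (0.0532); hmgcra for calindol against testosterone was gained there (0.0499), without a filter (0.0384) and with DESeq2 (0.0411). Size factors in place of the trimmed mean moved the median of all genes by at most 0.0298 (log2), and EGCG against testosterone then had 1360 genes higher and 904 lower, against 1224 and 1131. Of 282 results past the threshold in the other lists, 186 stayed past it in every alternative but that of a log2 fold change of at least 1. Of the 282, 0 changed sign. The alternatives for these lists were added after seeing the data.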

Other observations

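Fatty acid synthesis is the other pathway under SREBP control in mammals. Of 12 genes 9 were tested, and relative to DMSO 3 rose and 3 fell with EGCG, 3 rose with calindol and 1 rose with testosterone alone. Of all genes, 7.69% rose and 9.33% fell with EGCG, 11.5% rose with calindol and 2.93% rose with testosterone alone. With EGCG, 1 rose and 1 fell without the EGCG library of clutch 1, 0 fell without the EGCG library of clutch 2 or the DMSO library of clutch 1, and 1 fell without the DMSO library of clutch 2. The gene that rose each time was fads2, a fatty acid desaturase, with CPM in clutches 1, 2 and 4 of 16.1, 13.6 and 18.3 with testosterone and EGCG, 50.2, 39.2 and 37.3 with testosterone and calindol, 24.1, 26.5 and 27.3 with testosterone, and 7.94, 6.79 and 8.19 with DMSO. The 4 groups did not overlap. Its log2 fold change against DMSO was 1.07 with EGCG (adjusted p = 0.000348), 2.47 with calindol (1.69e-07) and 1.77 with testosterone alone (3.42e-06). Relative to testosterone alone it was higher with calindol (0.70, adjusted p = 0.00136) and lower with EGCG (−0.70, 0.0073), and with EGCG rather than calindol it was lower (−1.40, 2.15e-06).

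With calindol against DMSO, elovl6, a fatty acid elongase, rose by 0.54 (adjusted p = 0.00473), and elovl5 by 0.37 (0.0387), a call lost with clutch as a block (0.052) and without the calindol library of clutch 1 (0.167) or the DMSO library of clutch 1 (0.12) or 4 (0.121). With EGCG against DMSO, scdb, a stearoyl-CoA desaturase, rose by 0.42 (adjusted p = 0.00957), a call lost without the EGCG library of clutch 1 (0.0555). With EGCG rather than calindol, scdb was higher (0.44, adjusted p = 0.0019), and elovl5 (−0.84, 0.000136) and acacb, an acetyl-CoA carboxylase (−0.54, 0.000279), were lower. The other calls that the naming rule selects in this list (scd, acacb, me1 and elovl5 with EGCG against DMSO, elovl5 and elovl6 with calindol against testosterone, and acacb with EGCG against testosterone) were each lost when 1 or more single libraries were left out.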
